A study of Saccharomyces cerevisiae with 16 samples.

Results

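The thiamine genes of budding yeast are described here through entry into meiosis, in *ime2Δ* and wild type (WT) cells. The set holds 10 of the 6256 genes on the array, namely *THI2*, *THI3*, *THI4*, *THI6*, *THI7*, *THI20*, *THI21*, *THI22*, *THI80*, and *PHO3*, each measured by 1 probe spotted 2 times. They were chosen by a measured value, because *THI4* stood near the end of the ranking of genes by the strain difference in the change between 0 and 2 h. Every comparison of groups at 0 or 2 h is therefore given as a description, without a test, and tests compare only groups at 4 and 6 h. These tests take their spread estimate from all 16 arrays, those at 0 and 2 h included. The choice of *THI4* used the same estimate, through an adjusted p threshold, so tests of *THI4* are not independent of that choice. The study asked how the protein kinase Ime2 affects early meiotic gene expression. The *ime2Δ* cells (strain YGB221) were homozygous for *ime2Δ::TRP1*, a replacement of *IME2* by *TRP1*, and the WT cells (strain DSY1089) carried intact *IME2*. Both were *MAT* a/α diploids of SK1 background and shared *trp1::hisG* and *leu2::hisG*, the heteroallelic *his4B/his4X* and *arg4-BglII/arg4-NspI* pairs, and the alleles *ura3*, *lys2*, and *ho::LYS2*. Each genotype was thus represented by 1 strain. The cells were pregrown in acetate medium, moved to sporulation medium, and sampled at 0, 2, 4, and 6 h. The design text names 2 independent experiments, and the 16 single color arrays carry replicate numbers 1 and 2 in 8 groups of 2, with a slide for each number.

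Thiamine is assembled from a thiazole and a pyrimidine that are made separately and then joined, and thiamine diphosphate is the form that enzymes use as a cofactor. In yeast the genes of this pathway are known to be held low when thiamine is plentiful and to be switched on when it is scarce, through the regulators Thi2, Thi3, and Pdc2. Thi4 makes the thiazole, Thi20 and Thi21 phosphorylate the pyrimidine, Thi6 joins both parts, Thi80 adds the diphosphate, Thi7 carries thiamine into the cell, and Pho3 is a periplasmic phosphatase that frees thiamine from its phosphate esters. Thi22 resembles Thi20 and Thi21 in sequence but is not known to act as their equal in the pathway. Because *THI20*, *THI21*, and *THI22* are related in sequence, RNA of one may also bind the probe of another, and their values are uncertain to that extent.

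All values are log2 signals over the median of their array, so that a difference of 1 is a 2-fold difference, and values of different genes are not set against each other because each probe binds with its own strength. The median signal of an array lay between 7579.6 and 14875.1, Pearson's r over genes between both arrays of a group was 0.988 to 0.994, and all 10 thiamine genes were well above background on all 16 arrays. *IME2* was well above background on 0 of the 8 *ime2Δ* arrays, and WT cells exceeded them at least 3657-fold at 0 h and at least 28765-fold at 6 h, the bound being the lowest signal well above background on the *ime2Δ* arrays. The 4 early meiotic genes looked at (*HOP1*, *SPO11*, *REC8*, and *DMC1*) were higher at 2 h than at 0 h in both strains. Their summed linear signal at 2 h was 22.5 to 23.5 times the array median in *ime2Δ* cells, against 34.3 to 36.1 times in WT cells. At 0 h it was 0.731 to 0.791 times against 1.69 to 2.67 times. At 6 h the strains overlapped, with 43.8 to 49.3 times against 35.0 to 48.7 times, though *SPO11* was lower in *ime2Δ* cells (-1.89). This sum is led by the probe with the highest signal, which was *DMC1* in both strains at 0, 2, and 6 h. At 2 h the log2 mean of *DMC1* was 4.16 in *ime2Δ* and 4.59 in WT cells, beside 1.93 and 2.68 for *HOP1*. The log2 strain difference at 2 h was -1.83 for *REC8*, -1.67 for *SPO11*, -0.75 for *HOP1*, and -0.44 for *DMC1*. The summed linear signal of 4 middle sporulation genes (*SPS1*, *SMK1*, *SPR3*, and *SPS4*), in multiples of the array median, was 0.105 to 0.126 in *ime2Δ* cells at 0 h against 3.85 to 4.93 in WT cells. At 6 h it was 0.146 to 0.158 in *ime2Δ* cells against 154 to 195 in WT cells. All 4 of these genes were lower in *ime2Δ* cells at every time, none was at background, and the part of this difference in sporulation state in the thiamine gene values was not tested. The arrays held RNA of whole cultures, in which fewer cells of a state and less RNA per cell cannot be told apart. The strains were hybridized in separate columns of both slides, so that strain and slide column cannot be told apart either. An intact *TRP1* was carried only by *ime2Δ* cells, so that its presence cannot be told apart from the loss of *IME2*.

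*THI4* differed between the strains most at the outset. At 0 h its log2 values were -1.46 and -1.28 in *ime2Δ* cells, against 0.91 and 0.66 in WT cells. At 2 h they were -2.25 and -2.38 in *ime2Δ* cells, against -2.85 and -2.79 in WT cells. The 2 strains were thus far apart at 0 h, with *ime2Δ* lower, and closer together at 2 h, with *ime2Δ* higher, and they did not overlap at either time. The *ime2Δ* mean was 0.225 times the WT mean at 0 h and 1.42 times the WT mean at 2 h. Between 0 and 2 h the mean moved by -0.95 in *ime2Δ* cells, against -3.60 in WT cells, where the 2 h signal was 0.0823 times that at 0 h. The change in *ime2Δ* cells minus that in WT cells was 2.66, with 2.97 in replicate 1 and 2.34 in replicate 2. Most of this quantity came from the 0 h arrays, where the strains differed by -2.15 (*ime2Δ* minus WT), while at 2 h they differed by 0.50.

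By this value *THI4* ranked 2 among 6254 genes. Just before it stood *GRE1*, a stress-induced gene, at 2.95 (3.88 and 2.02 in the replicates), and just after it YIR042C at 2.40 (4.20 and 0.60). Among genes past an adjusted p threshold on this difference, which *GRE1* and YIR042C did not meet, *THI4* ranked 1. These values and that threshold, whose spread estimate came from all arrays, chose the set, and nothing further is read from them.

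**Figure D1:**
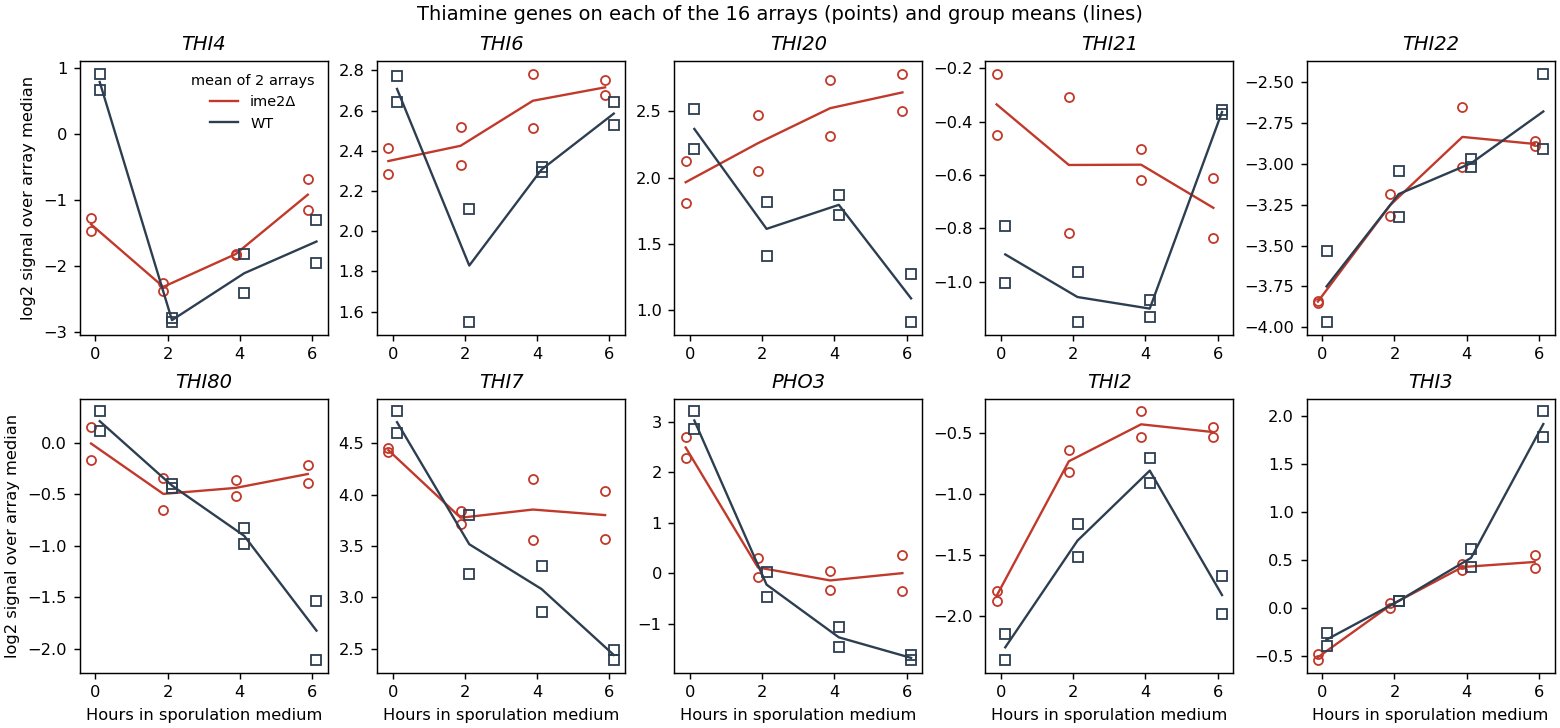
log2 signal over the array median (vertical axes, scaled for each gene) of the 10 thiamine genes by hours in sporulation medium, in *ime2Δ* (red circles) and WT (dark squares) cells. Points are single arrays and lines join the means of 2 arrays. *THI4* is separated most at 0 h, with -1.46 and -1.28 in *ime2Δ* against 0.91 and 0.66 in WT cells, whereas *THI20*, *THI80*, *THI7*, *PHO3*, *THI2*, and *THI3* are separated most at 6 h.

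*PHO3* had the most negative 0 to 2 h change of the 10 genes in *ime2Δ* cells, and the most negative after *THI4* in WT cells. *PHO3* had values of 2.29 and 2.70 in *ime2Δ* cells at 0 h, against 2.85 and 3.21 in WT cells. At 2 h it had values of -0.08 and 0.31 in *ime2Δ* cells, against 0.02 and -0.47 in WT cells. *PHO3* was therefore much lower at 2 h than at 0 h in both strains, by -2.38 in *ime2Δ* and -3.26 in WT cells, and its strains overlapped at 2 h but not at 0 h. The transporter gene *THI7* had 4.45 and 4.41 in *ime2Δ* cells at 0 h, against 4.81 and 4.60 in WT cells. Its change to 2 h was -0.66 in *ime2Δ* and -1.19 in WT cells.

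*THI20* and *THI6*, whose products act around the joining step, had lower means at 2 h than at 0 h in WT cells and higher means in *ime2Δ* cells. *THI20* values at 2 h were 2.47 and 2.05 in *ime2Δ* cells, against 1.82 and 1.41 in WT cells, and its change from 0 h was 0.30 in *ime2Δ* against -0.76 in WT cells. The difference of these changes was 1.05 in both replicates, and *THI20* moved up in both *ime2Δ* replicates and down in both WT replicates. *THI6* values at 2 h were 2.52 and 2.33 in *ime2Δ* cells, against 2.11 and 1.55 in WT cells, with changes from 0 h of 0.08 in *ime2Δ* and -0.88 in WT cells. In the remaining genes the 0 to 2 h changes of the strains lay closer together. The regulator genes *THI2* (1.10 in *ime2Δ*, 0.87 in WT) and *THI3* (0.54 in *ime2Δ*, 0.40 in WT) and the paralog *THI22* (0.59 in *ime2Δ*, 0.57 in WT) were higher at 2 h than at 0 h. The diphosphate gene *THI80* (-0.49 in *ime2Δ*, -0.63 in WT) and *THI21* (-0.23 in *ime2Δ*, -0.16 in WT) were lower. Over these 5 genes the difference of the changes lay between -0.07 and 0.23.

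At 0 h the arrays of the strains did not overlap for 8 of the 10 thiamine genes, with 2 higher (*THI2*, *THI21*) and 6 lower in *ime2Δ* cells, where 53.9% of all 6254 genes did not overlap, 26% higher and 27.9% lower. At 2 h this held for 6 of the 10, with 5 higher and 1 lower in *ime2Δ* cells, against 62% of all genes, 33.5% higher and 28.5% lower. The median strain difference of the set was -0.24 at 0 h and 0.42 at 2 h, beside -0.01 and 0.03 over all genes. From 0 to 2 h within a strain, 7 of the 10 did not overlap in *ime2Δ* cells (73% of all genes) and 9 of the 10 in WT cells (79.6% of all genes). These comparisons share arrays with the choice of the set, so the counts are a description.

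Over the whole course the genes differed in how far they moved and in the order of their groups. *PHO3* covered the widest range over the 16 arrays, 4.94 on the log2 scale, followed by *THI4* with 3.76, and *THI21* the narrowest with 0.93. In ascending order the *THI4* means were -2.82 in WT at 2 h, -2.32 in *ime2Δ* at 2 h, -2.11 in WT at 4 h, -1.82 in *ime2Δ* at 4 h, -1.63 in WT at 6 h, -1.37 in *ime2Δ* at 0 h, -0.92 in *ime2Δ* at 6 h, and 0.78 in WT at 0 h. Neighbours from *ime2Δ* at 2 h up to *ime2Δ* at 0 h overlapped in pairs, whereas the WT 2 h arrays lay below and the *ime2Δ* 6 h and WT 0 h arrays above all others. *THI4* in WT cells at 6 h was still 0.188 times its level at 0 h, while in *ime2Δ* cells it was 1.36 times its own lower starting level. For *PHO3* the WT arrays at 6 h and 4 h lay lowest, the 3 later *ime2Δ* groups and WT at 2 h overlapped in the middle, and both 0 h groups lay above them. *PHO3* at 6 h was 0.178 times its 0 h level in *ime2Δ* cells, against 0.0382 times in WT cells. For *THI3* both 0 h groups lay lowest and both 2 h groups next, the 4 h groups overlapped with *ime2Δ* at 6 h, and WT at 6 h stood apart at the top.

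The 4 h arrays did not enter the difference that ranked the genes. They did enter the spread estimate behind its adjusted p threshold, and so the choice of the set. At 4 h thiamine genes that differed between the strains were higher in *ime2Δ* cells. *PHO3* had 0.04 and -0.33 in *ime2Δ* cells, against -1.07 and -1.47 in WT cells. *THI7* had 4.15 and 3.56 in *ime2Δ* cells, against 3.31 and 2.86 in WT cells. *THI20* had 2.73 and 2.31 in *ime2Δ* cells, against 1.72 and 1.87 in WT cells. In each of these the *ime2Δ* arrays lay above the WT arrays, with no overlap, as they did for 7 of the 10 genes, where 67.3% of all genes did not overlap, 33.7% with *ime2Δ* above and 33.5% with it below. *THI21* likewise had -0.50 and -0.62 in *ime2Δ* cells, against -1.07 and -1.13 in WT cells.

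These 4 of the 10 genes had a limma adjusted p under 0.05, all higher in *ime2Δ* cells, where 31.2% of the 6254 genes tested were called, 14.2% as higher and 16.9% as lower. The log2 difference, *ime2Δ* minus WT, was 1.13 for *PHO3* (SE 0.28, adjusted p = 0.0082), 0.77 for *THI7* (SE 0.25, adjusted p = 0.034), 0.73 for *THI20* (SE 0.23, adjusted p = 0.031), and 0.54 for *THI21* (SE 0.19, adjusted p = 0.043). Within replicates 1 and 2 the difference was 1.11 and 1.15 for *PHO3* and 1.02 and 0.44 for *THI20*. *THI4* did not differ beyond the spread at this time, with -1.83 and -1.81 in *ime2Δ* cells against -2.40 and -1.82 in WT cells, a difference of 0.29 (95% confidence interval -0.24 to 0.82, adjusted p = 0.40). *THI80* (0.47), *THI2* (0.38), *THI6* (0.34), *THI22* (0.16), and *THI3* (-0.10) did not pass the test. The median over the 10 genes was 0.42, beside 0.01 over all genes. With 2 arrays per group these calls were fragile. Without *ime2Δ* 4 h replicate 1 none of the 10 was called, *PHO3* being at 0.94 (adjusted p = 0.085) and *THI7* at 0.48 (adjusted p = 0.31). Without WT 4 h replicate 2 *PHO3* was at 0.93 (adjusted p = 0.068) and *THI7* at 0.55 (adjusted p = 0.21). *THI20* also lost its call without WT 4 h replicate 1 (0.65), without WT 4 h replicate 2 (0.81), or without *ime2Δ* 4 h replicate 1 (0.52). *THI21* lost it without any 1 of 8 arrays, the 4 at 4 h (0.48 to 0.60) and the 4 of WT cells at 0 and 2 h (adjusted p between 0.054 and 0.056). With normexp background correction, or with a fit to only the groups compared, *PHO3* alone was called.

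**Figure D2:**
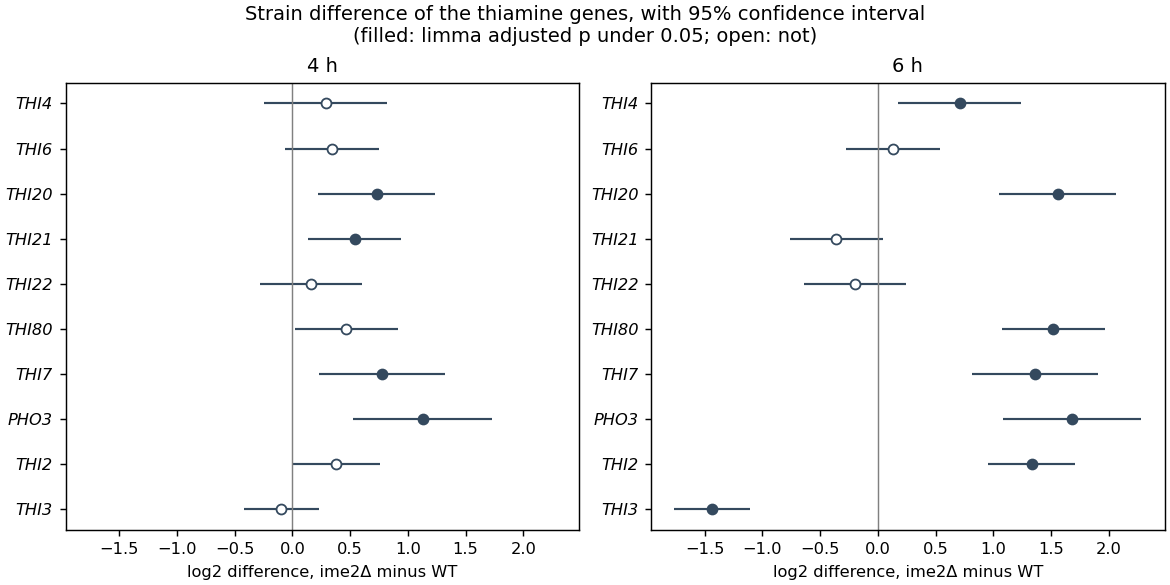
log2 difference between the strains (*ime2Δ* minus WT, horizontal axes) for each thiamine gene at 4 h (left) and 6 h (right). Points are limma estimates from 2 arrays per group, bars are 95% confidence intervals, and filled points have an adjusted p under 0.05. At 6 h *PHO3*, *THI20*, *THI80*, *THI7*, and *THI2* lie between 1.33 and 1.68 and *THI3* lies at -1.44.

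At 6 h the strains were further apart. *PHO3* had -0.36 and 0.36 in *ime2Δ* cells, against -1.63 and -1.73 in WT cells. *THI7* had 3.57 and 4.04 in *ime2Δ* cells, against 2.39 and 2.49 in WT cells. The phosphatase and the transporter gene were thus both higher in *ime2Δ* cells without overlap, by 1.68 (SE 0.28, limma adjusted p = 0.00019) and by 1.36 (SE 0.25, adjusted p = 0.00046). Of the synthesis genes, *THI20* had 2.79 and 2.50 in *ime2Δ* cells, against 1.27 and 0.91 in WT cells. *THI80* had -0.39 and -0.22 in *ime2Δ* cells, against -1.54 and -2.11 in WT cells. They too were higher in *ime2Δ* cells in both replicates, *THI20* by 1.56 (SE 0.23, adjusted p = 8.9e-05) and *THI80* by 1.52 (SE 0.21, adjusted p = 3.9e-05).

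The regulator genes went opposite ways. *THI2*, which encodes an activator of the pathway, had -0.54 and -0.45 in *ime2Δ* cells, against -1.98 and -1.68 in WT cells, and was higher in *ime2Δ* cells by 1.33 (SE 0.17, adjusted p = 3.0e-05). *THI3*, whose product is known to sense thiamine diphosphate, had 0.54 and 0.41 in *ime2Δ* cells, against 1.78 and 2.04 in WT cells, and was lower in *ime2Δ* cells (log2 difference -1.44, SE 0.15, adjusted p = 4.1e-06). It was the 1 gene of the set that was lower in *ime2Δ* cells past the threshold at 6 h.

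*THI4* had -0.69 and -1.15 in *ime2Δ* cells at 6 h, against -1.31 and -1.95 in WT cells. The *ime2Δ* arrays lay above the WT arrays, the reverse of their order at 0 h, and the gap between the nearest arrays was small. The test of *THI4* shares its spread estimate with the threshold that chose the set, so it is not independent of that choice. The difference was 0.71 (SE 0.24, 95% confidence interval 0.18 to 1.24, adjusted p = 0.022), or 1.63-fold, with 0.62 and 0.80 within replicates 1 and 2. This call was lost without *ime2Δ* 6 h replicate 1 (0.48, adjusted p = 0.18), without WT 6 h replicate 2 (0.39, adjusted p = 0.23), with quantile normalization (0.62, adjusted p = 0.051), and with a fit to only the 6 h groups (adjusted p = 0.075).

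At 6 h the arrays of the strains did not overlap for 9 of the 10 genes, 7 higher and 2 lower in *ime2Δ* cells, where 80.7% of all genes did not overlap, 42.3% higher and 38.4% lower. In all, 7 of the 10 genes passed the test, against 64.2% of all genes, so that the share called was near that of the array. By direction, 6 were higher and 1 lower in *ime2Δ* cells, where 33.1% of all genes were called higher and 31.1% lower. The median over the set was 1.02, beside 0.10 over all genes. The 3 others were *THI6* (0.13), *THI21* (-0.36), and *THI22* (-0.20), of which *THI6* passed with quantile normalization (0.55, adjusted p = 0.019). For *THI21*, with -0.61 and -0.83 in *ime2Δ* cells against -0.36 and -0.37 in WT cells, the fit with the replicate number as a block gave an adjusted p of 0.047, against 0.11 without it. Scaling arrays to their 75th percentile shifted the median of all genes at 6 h by 0.28 toward *ime2Δ*, and the 7 calls and their directions were the same under it.

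Between 4 and 6 h 6 of the 10 thiamine genes passed the limma test (adjusted p under 0.05) in WT cells, 2 upward and 4 downward. This was near the share of all genes, of which 55.1% changed, 26.4% upward and 28.7% downward. *THI3* rose by 1.39 (SE 0.15, adjusted p = 1.0e-05) and *THI21* by 0.74 (SE 0.19, adjusted p = 0.0055). *THI2* fell by 1.02 (SE 0.17, adjusted p = 0.00043), *THI80* by 0.92 (SE 0.21, adjusted p = 0.0026), *THI20* by 0.71 (SE 0.23, adjusted p = 0.022), and *THI7* by 0.64 (SE 0.25, adjusted p = 0.046). The calls of *THI7* and *THI20* rested on single arrays, and they were also lost with a fit to only the groups compared for *THI7* (adjusted p = 0.072) and with normexp for *THI20* (-0.64, adjusted p = 0.10). That of *THI7* was lost without any 1 of 9 arrays, with -0.41 without WT 4 h replicate 1, -0.59 without WT 6 h replicate 1, -0.69 without WT 6 h replicate 2, and -0.64 without 1 of the WT arrays at 0 h or of the *ime2Δ* arrays at 0 or 2 h (adjusted p between 0.055 and 0.057), and that of *THI20* without WT 4 h replicate 1 (-0.78), without WT 4 h replicate 2 (-0.63), or without WT 6 h replicate 2 (-0.53). *PHO3* (-0.41), *THI22* (0.32), and *THI6* (0.28) did not pass. *THI4* was at 0.48 (95% confidence interval -0.05 to 1.01), with 1.09 in replicate 1 and -0.13 in replicate 2, and passed without WT 4 h replicate 2 (0.77, adjusted p = 0.036) or without WT 6 h replicate 2 (0.80, adjusted p = 0.032), and with quantile normalization (0.74, adjusted p = 0.028).

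In *ime2Δ* cells limma called 0 of 6254 genes between 4 and 6 h, and so 0 of the 10 (0% of all genes), with 386 genes at an unadjusted p under 0.05 and 1 gene called with the replicate block. Among the thiamine genes the exception at an unadjusted p under 0.05 was *THI4*, with -0.69 and -1.15 at 6 h against -1.83 and -1.81 at 4 h. Its arrays at these times did not overlap, and its difference was 0.90 (95% confidence interval 0.37 to 1.43, limma adjusted p = 0.52). It was not called, and this test too is not independent of the choice of *THI4*. The other 9 lay between -0.16 and 0.14.

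Whether the 4 to 6 h change differed between strains was itself tested. It passed for 4 of the 10 genes, 2 in each direction, where 37.2% of all genes passed, 15.8% upward and 21.4% downward. *THI80* (1.06, SE 0.29, adjusted p = 0.014) and *THI2* (0.95, SE 0.25, adjusted p = 0.010) changed upward in *ime2Δ* relative to WT cells, and *THI3* (-1.34, SE 0.21, adjusted p = 0.00048) and *THI21* (-0.90, SE 0.26, adjusted p = 0.019) downward. *THI20* was at 0.83 (adjusted p = 0.066), and it passed with the replicate number as a block (adjusted p = 0.012), with 75th percentile scaling (1.08, adjusted p = 0.021), and with quantile normalization (1.12, adjusted p = 0.018). *THI7* passed with quantile normalization (1.13, adjusted p = 0.023). *THI4* was at 0.42 (95% confidence interval -0.33 to 1.17) and was not called. The call of *THI80* was lost with normexp (0.77, adjusted p = 0.086) and without WT 6 h replicate 2 (0.77, adjusted p = 0.054). That of *THI21* was lost with 75th percentile scaling (-0.64, adjusted p = 0.064), and *THI21* was at -0.84 without *ime2Δ* 4 h replicate 1 (adjusted p = 0.063) and at -0.79 without *ime2Δ* 6 h replicate 2 (adjusted p = 0.066). *THI20* passed without WT 6 h replicate 1 (1.01, adjusted p = 0.046).

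**Figure D3:**
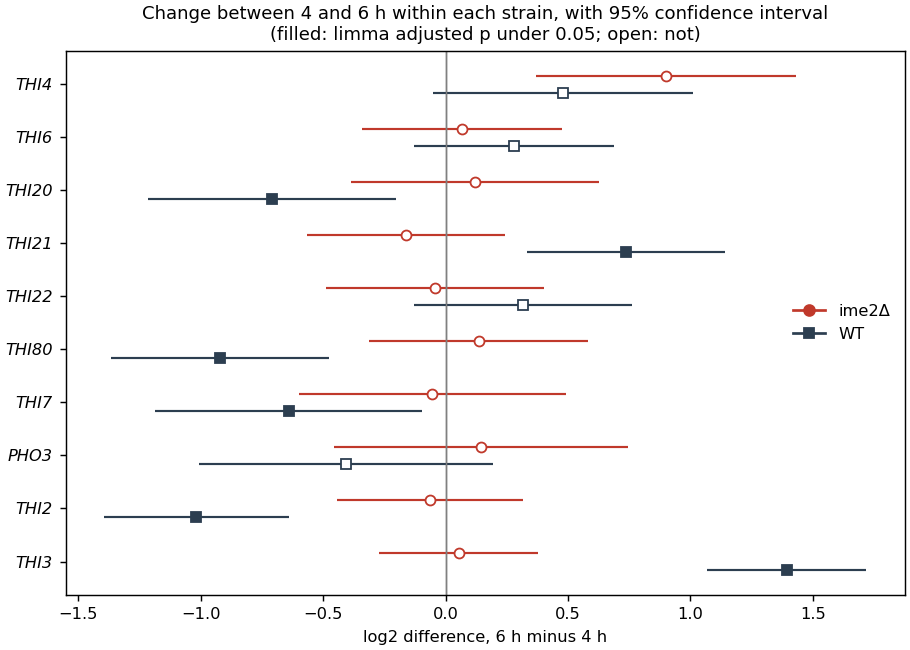
log2 difference between 6 and 4 h (6 h minus 4 h, horizontal axis) of each thiamine gene in *ime2Δ* (red circles) and WT (dark squares) cells. Points are limma estimates, bars are 95% confidence intervals, and filled points have an adjusted p under 0.05. The *ime2Δ* values lie between -0.16 and 0.14 except *THI4* at 0.90, whereas WT values run between -1.02 (*THI2*) and 1.39 (*THI3*).

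Other genes tied to thiamine were read as 2 further lists. The first held 17 genes, the pyrimidine synthesis genes *THI5*, *THI11*, *THI12*, and *THI13*, the transporter genes *THI72*, *NRT1*, *THI73*, *THI74*, and *TPC1*, the regulator gene *PDC2*, *PET18*, and the *SNZ* and *SNO* genes of vitamin B6 synthesis. At 6 h limma called 12 of the 17 higher and 3 lower in *ime2Δ* cells, where 33.1% of all genes were called higher and 31.1% lower. The list median was 1.11, beside 0.10 over all genes. *THI5* had 1.55 and 1.62 in *ime2Δ* cells at 6 h, against 0.23 and 0.15 in WT cells. Its arrays did not overlap, and it was higher in *ime2Δ* cells by 1.39 (SE 0.20, adjusted p = 6.3e-05). *THI12* (1.39), *THI13* (1.28), and *THI11* (1.23) were higher by similar amounts, but these 4 genes are near-identical copies that probes may not separate, and they count as less than 4 measurements. *SNZ2*, *SNO2*, *SNZ3*, and *SNO3*, of which the first 2 neighbour *THI12* and the others *THI5* on their chromosomes, were higher by 1.04 to 1.43, and they too come in near copies.

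The 3 genes of this list that were lower in *ime2Δ* cells at 6 h were *THI74*, *NRT1*, and *THI72*. *THI74*, which encodes a mitochondrial transporter, had -0.59 and -0.75 in *ime2Δ* cells, against 3.87 and 4.35 in WT cells, and was lower in *ime2Δ* cells (log2 difference -4.78, SE 0.20, adjusted p = 4.4e-10). *NRT1* (-2.11), whose product carries nicotinamide riboside, and *THI72* (-1.03) are relatives of *THI7* in sequence, and *THI7* itself was higher in *ime2Δ* cells (1.36). The transporter genes *THI73* (2.11) and *TPC1* (1.07) were higher as well. *PDC2* (-0.00) and *SNO1* (0.57) did not pass the test at 6 h.

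At 4 h 4 of the 17 were higher in *ime2Δ* cells, namely *THI73* (1.76), *SNZ1* (1.28), *THI13* (0.69), and *PDC2* (0.61), and 3 were lower, namely *THI74* (-1.67), *NRT1* (-1.33), and *TPC1* (-0.55), where 14.2% of all genes were called higher and 16.9% lower. *TPC1*, which encodes the mitochondrial carrier of thiamine diphosphate, had -1.36 and -1.28 in *ime2Δ* cells at 6 h, against -2.27 and -2.51 in WT cells, and so was higher in *ime2Δ* cells at 6 h (1.07) after being lower at 4 h (-0.55). Whether its 4 h call holds without single arrays was not checked. The strain difference in the 4 to 6 h change passed for 11 of the 17 genes, with 8 upward in *ime2Δ* relative to WT cells, the highest being *TPC1* (1.62), and 3 downward, where 15.8% of all genes passed upward and 21.4% downward. In WT cells between 4 and 6 h, 9 of the 17 fell and 3 rose, *THI74* by 3.22, where 28.7% of all genes fell and 26.4% rose.

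The second list held 10 enzymes that use thiamine diphosphate. At 4 h 5 of the 10 were higher in *ime2Δ* cells and none lower, where 14.2% of all genes were called higher and 16.9% lower. At 6 h 5 were higher and 2 lower, and these 7 of 10 were near the 64.2% of all genes called. *PDC1*, the main pyruvate decarboxylase gene, had 4.28 and 4.13 in *ime2Δ* cells at 6 h, against 1.77 and 1.31 in WT cells. It was higher in *ime2Δ* cells without overlap, by 2.67 at 6 h (SE 0.29, adjusted p = 5.2e-06) and by 2.29 at 4 h (SE 0.29, adjusted p = 7.7e-05). The transketolase genes *TKL2* (2.02) and *TKL1* (1.70), the acetolactate synthase gene *ILV2* (1.77), and the pyruvate dehydrogenase gene *PDB1* (1.10) were also higher at 6 h. *ARO10*, a decarboxylase gene of amino acid breakdown, was lower (-1.51), and so was *KGD1*, of the citric acid cycle (-0.94). *PDC5* (-0.06), *PDA1* (0.20), and *PDC6* (-0.36) did not pass.

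**Figure D4:**
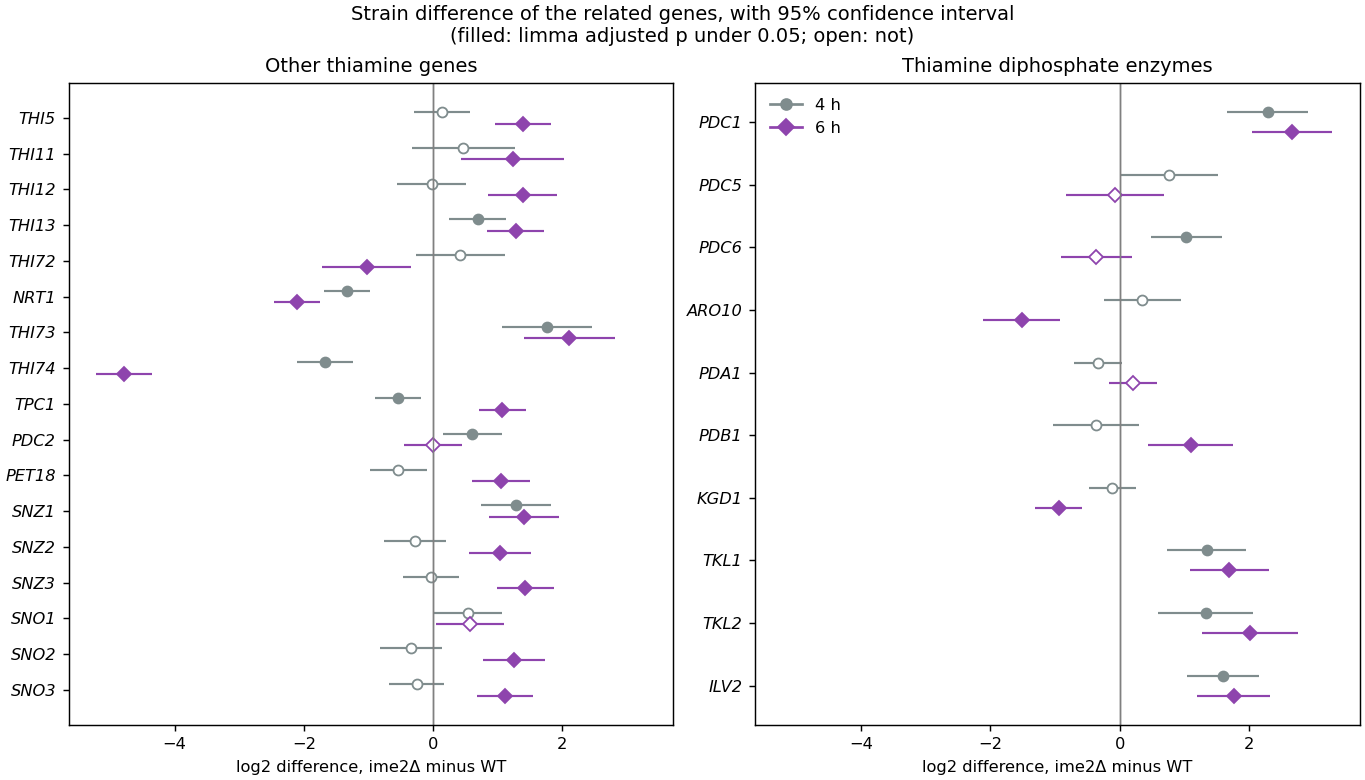
log2 difference between the strains (*ime2Δ* minus WT, horizontal axes) at 4 h (gray circles) and 6 h (purple diamonds) for 17 other thiamine genes (left) and 10 genes of enzymes that use thiamine diphosphate (right). Points are limma estimates, bars are 95% confidence intervals, and filled points have an adjusted p under 0.05. *THI74* lies lowest at -4.78 at 6 h and *PDC1* highest at 2.67.

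Likeness to *THI4* was measured by Pearson's r over the 16 arrays, among 5872 genes well above background on all of them, as a description. The 16 points come from 2 strains, 4 times, and 2 replicates and are not independent samples of 1 kind, and the 2 WT arrays at 0 h stand apart from the rest. The 8 genes most like *THI4* were YKL053W (0.93), *TIR4* (0.87), YNL114C (0.86), YMR320W (0.85), YNL276C (0.85), *CRG1* (0.85), *TOS3* (0.85), and *SIP2* (0.84). Some had low signals, although well above background, with means in WT cells at 2 h of -8.36 for YNL276C and -6.17 for YNL114C. Each of the 8 had its highest group mean in WT cells at 0 h. Their choice by likeness to *THI4*, itself highest there, favors such a peak, so it is no separate result. *TIR4*, which encodes a cell wall mannoprotein, had a mean of 0.04 in *ime2Δ* cells at 0 h, against 1.67 in WT cells. At 2 h its mean was -1.49 in *ime2Δ* cells, against -1.08 in WT cells. Over the 8 group means instead of the arrays, 5 of these 8 genes were among the top 8.

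**Figure D5:**
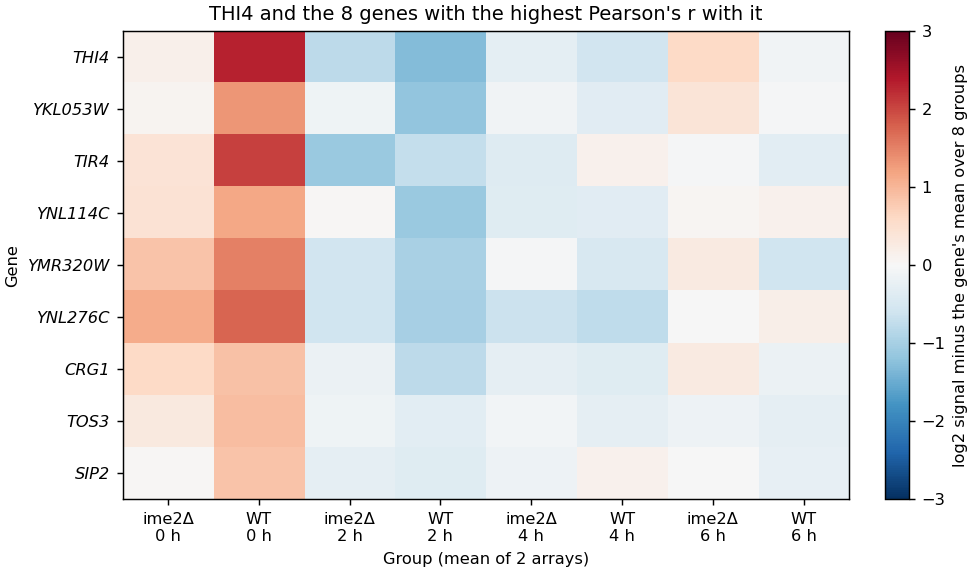
Group means of *THI4* and of the 8 genes with the highest Pearson's r with it, each minus the gene's own mean over the 8 groups (color, log2 units), with *ime2Δ* left of WT at each time. All 9 genes are highest in WT cells at 0 h, where *THI4* lies 2.31 above its own mean. The 8 were chosen by likeness to *THI4*, so the shared peak is no separate result.

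No other thiamine gene of the set was among them. *PHO3* (r of 0.64, rank 186) and *THI6* (0.64, rank 193) came closest to *THI4*, followed by *THI7* (0.51), *THI80* (0.42), and *THI20* (0.40), while *THI21* (0.05), *THI3* (-0.22), *THI22* (-0.42), and *THI2* (-0.49) did not run with it. Some other pairs of the set had an r further from 0, over arrays that include those at 0 and 2 h. How often other pairs of genes reach such r was not computed. *PHO3* and *THI7* had r of 0.92, *THI7* and *THI80* 0.92, *PHO3* and *THI80* 0.83, and *THI3* and *THI22* 0.81. By contrast, *THI3* and *THI80* had r of -0.92, *PHO3* and *THI22* -0.88, and *THI3* and *THI7* -0.87. The set therefore did not follow 1 course, with *PHO3*, *THI7*, and *THI80* at a lower mean at each later time in WT cells, *THI4* at its lowest mean at 2 h in both strains, and *THI2* and *THI3* higher at 4 h than at 0 h in both strains.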

How the data were processed

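RNA of *ime2Δ* and WT cells was labeled with a single dye and hybridized by the authors to single color Agilent 60-mer arrays, 8 arrays to each of 2 slides, 1 slide per replicate number. The authors deposited spot intensity values made with Agilent Feature Extraction 10.7.1.1, background subtracted and not scaled between arrays. The authors also deposited log2 values normalized in GeneSpring to the median of each array, used here as an alternative. The main value was computed from the processed intensity, taken to log2, averaged over the spots of a probe, and centered on the array median. Spots marked as outliers, between 0 and 13 per array, were left out. Genes were named through the RefSeq gene table for 5756 of 6256 identifiers, and the rest keep their systematic names.

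Groups were compared with limma 3.58.1 (lmFit and eBayes) in R 4.3.3, fitted to all 16 arrays with 8 residual and 4.58 prior degrees of freedom, over 6254 genes without *IME2* and *TRP1*, with Benjamini-Hochberg adjusted p under 0.05 as the threshold. The p-values measure the spread between 2 arrays per group. By the study's methods, aliquots of a culture were harvested over time. Times of 1 strain and replicate number are thus likely samples of 1 culture, which the main fit treats as independent. The replicate block is shared by both strains and does not stand for a culture. The fit was tested on simulated data before use. Their noise was independent between arrays, so that test does not cover spread shared by same-numbered arrays. The 10 genes and the gene lists were chosen with earlier results of these data known. The genes named are those 10, the 2 lists, the 8 genes most like *THI4*, *IME2* and *TRP1*, the marker genes, and the neighbours of *THI4* in the ranking. The replicate number stands for a slide, and the labels do not state that it also marks an experiment. Over 28 pairs of groups, the deviations of same-numbered arrays correlated across genes with r between 0.075 and 0.535 (median 0.224, 26 over 0.1), and fits with the replicate block are given where they change a call. Sequences of promoters, probes, and proteins were not used here. Figures were drawn with matplotlib 3.10.9.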

Additional observations from a re-analysis of the deposited data

Results flagged for a closer look

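The change between 4 and 6 h differed between the strains for 4 thiamine genes by the test of that difference (limma adjusted p under 0.05). The value, *ime2Δ* minus WT, was 0.95 for *THI2*, -1.34 for *THI3*, -0.90 for *THI21*, and 1.06 for *THI80*. In each case the change passed the test in WT cells and not in *ime2Δ* cells. The call of *THI21* was lost with 75th percentile scaling (adjusted p = 0.064) and that of *THI80* with normexp (adjusted p = 0.086). *THI20* is listed because its 0 to 2 h change was upward in both *ime2Δ* replicates and downward in both WT replicates, by a difference of 1.05. That difference was not tested, since the 0 and 2 h arrays were used to choose the genes.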

How the results depend on the processing

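Outside the leave-one-out fits, 411 values counted as unchanged. All but 1 were thiamine gene values that kept their direction and their side of the threshold. That 1 was the overlap of the list of genes most like *THI4* with 75th percentile scaling. Of the thiamine gene values, 22 lost and 7 gained a call, and 11 changed sign. The sign changes were of values near 0 that were not called. With 75th percentile scaling these were *THI22* at 6 h (0.084) and *THI6* in the strain difference of the 4 to 6 h change (0.044). With quantile normalization they were *THI22* at 6 h (0.062), *THI6* in WT between 4 and 6 h (-0.098) and in the strain difference of that change (0.188), and *THI7* (0.035) and *THI22* (0.042) in *ime2Δ* between 4 and 6 h. With normexp correction (offset 50) they were *THI6* at 6 h (-0.0031) and, in *ime2Δ* between 4 and 6 h, *THI3* (-0.022), *THI7* (0.019), and *THI22* (0.037). At 4 h 1 thiamine gene in place of 4 was called with normexp, with a fit to only the groups compared, or with a minimum absolute log2 change of 1. That minimum left 981 genes at 4 h, 2421 at 6 h, and 1578 between 4 and 6 h in WT, and 2 thiamine genes for the WT change and 2 for its strain difference. With the replicate block, 2349 genes were called at 4 h, 4319 at 6 h, 3796 for the WT change, 2758 for its strain difference, and 1 in place of 0 for the *ime2Δ* change, and no thiamine gene changed its call but *THI21* at 6 h and *THI20* in the strain difference of the 4 to 6 h change. The scaling moved the split of calls. Higher genes were 51.6% of calls at 6 h, 64.4% with 75th percentile and 61.0% with quantile scaling, 47.9%, 34.4%, and 41.6% for the WT change, and 42.5%, 61.3%, and 53.1% for the strain difference of the change. Leaving out single arrays gave 972 to 2058 genes and 0 to 4 thiamine genes at 4 h, 3345 to 4032 and 6 to 7 at 6 h, 2470 to 3455 and 4 to 6 for the WT change, 1631 to 2472 and 3 to 5 for its strain difference, and 0 and 0 for the *ime2Δ* change. Signs then turned at 4 h for *THI3* (-0.19 to 0.0013), *THI4* (-0.0056 to 0.58), and *THI22* (-0.020 to 0.34), and at 6 h for *THI22* (-0.43 to 0.034). They also turned for the *ime2Δ* change of *THI2* (-0.17 to 0.041), *THI3* (-0.015 to 0.12), *THI6* (-0.069 to 0.20), *THI7* (-0.35 to 0.24), *THI20* (-0.091 to 0.33), *THI22* (-0.22 to 0.14), and *PHO3* (-0.22 to 0.51). The cause was not tested. The small number of arrays sets the limit on precision.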
